A study of Saccharomyces cerevisiae with 95 samples.

Results

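The respiratory chain and ATP synthase promoters were the promoters of 38 nuclear genes of budding yeast: the 4 genes of complex II, 9 of complex III, CYC1 for cytochrome c, 9 of complex IV, 13 of complex V, and the NADH dehydrogenase genes NDI1 and NDE1. The genes were chosen by function, with earlier results of these data known. For each of 5 general transcription factors (GTFs), a member was given the deposited binding site whose midpoint lay nearest its start codon, from 500 bp upstream to 200 bp downstream, in the R64 (sacCer3) genome. TBP gave 34 member sites among its 4385 sites. For TFIIA the number was 37 of 3685, with 35 of 4033 in TFIIB, 35 of 4473 in TFIIE and 36 of 3656 in TFIIF. Of the 38 members, 32 had a site for every factor. COX5B, which encodes the hypoxic isoform of the COX5A subunit, had one for TFIIA only.

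The data came from competition ChIP in diploid W303 yeast. In each strain 1 allele of a GTF carried a 9xMyc tag behind its own promoter, and the other carried a 3xHA tag behind the GAL1 promoter. In the TFIIA, TFIIE and TFIIF strains, a copy of the second subunit was also placed under GAL1 without a tag. Cultures grown in raffinose were shifted to galactose. ChIP libraries of each tag were analysed at 10 min, at 20, 25 and 30 min, and at 40, 60, 90 and 120 min, with 1 library for each factor, tag and time. The competitor and the change of sugar began together in every strain, so their parts in a change over time cannot be told apart. The paper's Western blots put the average induction half-time of the HA copy a little later than 40 min. Early HA libraries were thus taken before most of the competitor was made. How much of their signal was background was not tested. Libraries held 2740185 to 19483568 counts in sites. The mitochondrial share of these counts ran from 4.48% to 61.9% in the TFIIF libraries, against at most 18.1% in those of the other factors.

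The respiratory chain passes electrons from NADH and succinate through coenzyme Q, complex III and cytochrome c to oxygen at complex IV, and the proton gradient so formed drives the ATP synthase, complex V. Budding yeast has no proton-pumping complex I and uses single-protein NADH dehydrogenases, of which Ndi1 faces the matrix and Nde1 the outside of the inner membrane. Glucose represses most of these genes, and the Hap complex, which binds CCAAT boxes, and the heme-responsive activator Hap1 are known activators of many of them. TBP binds the core promoter and nucleates the preinitiation complex, TFIIA and TFIIB stabilize it, TFIIF accompanies the polymerase, and TFIIE joins late.

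Promoter letters were read from RefSeq R64 to show the binding motifs of these activators beside the binding data. A CCAAT box on either strand, from 250 bases before to 50 bases after the start codon, was held by 33 of 38 member promoters (86.8%) and by 2605 of all 6020 promoters (43.3%). All 4 complex II promoters held one, as did 12 of 13 in complex V, 8 of 9 in complex IV and 7 of 9 in complex III. The letters TATAAA were held by 16 of 38 member promoters (42.1%) and by 45.4% of all promoters. A Hap1 site, CGGNNNTANCGG on either strand, was held by 8 of all 6020 promoters (0.133%), of which QCR6 was the only member. A match is a description of letters, and no match says only that these letters were not in the window.

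The 6 promoters printed here are those on which the results turn. QCR6, CYC1 and COX5A had the steepest TFIIE ratio slopes among the members and ATP2 one of the steepest for TFIIF, while SDH2 and SDH4 belong to complex II, which had the lowest median TFIIB Myc slope. Each line gives, 5′ to 3′, the 200 bases that stop 100 bases short of the start codon, with matches to the searched motifs on either strand in capitals. In R64 the stretches are chrVI:224870-225069 (minus strand) for QCR6, chrX:526035-526234 (plus strand) for CYC1, chrXIV:531425-531624 (plus strand) for COX5A, chrX:647307-647506 (plus strand) for ATP2, chrXII:54032-54231 (minus strand) for SDH2 and chrIV:817650-817849 (plus strand) for SDH4.
QCR6: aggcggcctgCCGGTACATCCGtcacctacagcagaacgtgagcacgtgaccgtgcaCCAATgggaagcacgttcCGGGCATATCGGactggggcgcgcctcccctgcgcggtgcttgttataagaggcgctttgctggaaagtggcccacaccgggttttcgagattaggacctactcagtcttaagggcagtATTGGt
CYC1: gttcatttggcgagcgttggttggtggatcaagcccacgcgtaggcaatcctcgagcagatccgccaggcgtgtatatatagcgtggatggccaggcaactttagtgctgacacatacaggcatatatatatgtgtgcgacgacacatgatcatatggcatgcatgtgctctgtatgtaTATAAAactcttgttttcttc
COX5A: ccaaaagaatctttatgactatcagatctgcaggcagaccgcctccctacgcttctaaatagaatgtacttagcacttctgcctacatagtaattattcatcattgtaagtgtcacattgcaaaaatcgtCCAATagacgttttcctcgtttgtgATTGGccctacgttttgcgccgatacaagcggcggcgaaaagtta
ATP2: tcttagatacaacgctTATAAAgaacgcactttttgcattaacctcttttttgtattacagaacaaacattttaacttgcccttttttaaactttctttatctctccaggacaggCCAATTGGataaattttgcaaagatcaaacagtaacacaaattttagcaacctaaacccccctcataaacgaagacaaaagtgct
SDH2: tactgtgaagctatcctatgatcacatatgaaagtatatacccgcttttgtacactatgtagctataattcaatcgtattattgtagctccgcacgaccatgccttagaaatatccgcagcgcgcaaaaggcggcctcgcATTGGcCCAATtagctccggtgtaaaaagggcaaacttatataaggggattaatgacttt
SDH4: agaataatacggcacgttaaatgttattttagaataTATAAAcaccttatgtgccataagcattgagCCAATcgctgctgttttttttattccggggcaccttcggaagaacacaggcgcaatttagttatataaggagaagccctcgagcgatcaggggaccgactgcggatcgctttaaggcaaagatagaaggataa
The QCR6 stretch held 2 Hap1 sites and 2 CCAAT boxes. CYC1 held 1 TATAAA and no exact match to the other motifs. COX5A and SDH2 held 2 CCAAT boxes each. ATP2 held 2 CCAAT boxes that overlap on opposite strands and 1 TATAAA, and SDH4 held 1 of each. These stretches differ from the window of the shares given above. In that window QCR6 held 1 Hap1 site, ATP2 held 3 CCAAT boxes and SDH2 held 1 TATAAA.

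Member promoters were among the more strongly bound. The Myc level was the mean over the 8 Myc libraries of log2 CPM (counts scaled to library size) per kb of site, ranked among all promoter sites of the factor. The median member stood at percentile 82.3 in TBP, 91.0 in TFIIA, 91.9 in TFIIB, 95.5 in TFIIE and 89.7 in TFIIF. The top quartile of level held all 35 member sites of TFIIB and all 35 of TFIIE, and 35 of 36 in TFIIF, 32 of 37 in TFIIA and 21 of 34 in TBP. QCR6, the gene of an acidic subunit of complex III, was at percentile 10.5 in TBP and at 98.4 in TFIIE per kb of site, and at 76.5 and 92.2 when levels were not divided by site width.

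Each site was described by 3 slopes, all in log2 units per doubling of time in galactose. The Myc slope and the HA slope follow each tag over its 8 libraries, and the ratio slope follows HA relative to Myc over all 16. Each was fitted with edgeR's quasi-likelihood test over all sites of a factor, and a site was called where the Benjamini-Hochberg adjusted p was under 0.05. Libraries were scaled to one another, so a slope is relative to the other sites of the factor. With 1 library at each time the error, given as ± SE, and the p-values measure scatter about the trend over time and not variation between cultures.

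In TFIIE the HA copy gained on the Myc copy at nearly all member promoters. The ratio slope was called rising at 34 of 35 member sites, where 29.4% of all 4473 sites were called rising, and at none falling. The median member ratio slope was 0.40, against -0.01 over all sites. By complex, all 4 sites of complex II, all 8 of complex III and all 12 of complex V were called, with CYC1, both NADH dehydrogenase genes and 7 of 8 sites of complex IV. COX4, which encodes a complex IV subunit, was the exception, with a ratio slope of 0.19 ± 0.08. Ratio slopes were higher at more strongly bound promoters (Spearman's rho of 0.70 over 3876 promoter sites measured in the same libraries, given as a description). In the top quartile of Myc level, 748 of 969 promoter sites (77.2%) were called rising, with a median of 0.26. All TFIIE member sites lay at percentile 91.7 or above, so this quartile also holds sites less strongly bound than the members.

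QCR6 had the highest TFIIE ratio slope of all 4473 sites, 0.86 ± 0.07 (edgeR adjusted p = 8.8e-06), at chrVI:224618-225114. From 10 to 120 min its TFIIE HA level was 259.6, 647, 687, 780.0, 814, 788, 681 and 625 CPM. Its Myc level was 739, 615, 691, 639, 453, 341, 218 and 202 CPM. In scaled CPM, HA was far below Myc at 10 min, close at 20 and 25 min and above it in every later library. Myc was lowest in the last 2 libraries. HA and Myc libraries were scaled together, so above or below is relative to the other sites. Which copy was more abundant cannot be read from these values.

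CYC1, the gene of the aerobic cytochrome c isoform, ranked 14, with a TFIIE ratio slope of 0.63 ± 0.05 at chrX:525855-526714. Its TFIIE HA level was 652, 1107, 1124, 1139, 1064, 1385, 1172 and 1063 CPM. Its Myc level was 1173, 1164, 1160.1, 1046, 785, 786, 425 and 449 CPM, so each Myc library from 40 min on was below each earlier one. COX5A, the gene of the aerobic isoform of a complex IV subunit, ranked 18 with 0.61 ± 0.05. Its TFIIE HA level was 771, 1246, 1297, 1321, 1242, 1288, 1029.8 and 986 CPM and its Myc level 1626, 1445, 1476, 1305, 906, 821, 475 and 478 CPM. HA was lowest at 10 min, and Myc at 90 and 120 min was below every earlier library. SDH2, the gene of the iron-sulfur subunit of succinate dehydrogenase, had 0.54 ± 0.04, with Myc at 1065, 1007, 1034, 952, 688, 617, 386 and 334 CPM.

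The catalytic ATP synthase genes, the Rieske protein gene and NDI1 lay lower. ATP2, for the beta subunit, had a TFIIE ratio slope of 0.48 ± 0.06, with HA at 749.9, 975, 944, 943, 824, 938, 911 and 820.0 CPM and Myc at 1191, 1117, 1135, 1002, 739, 721, 431 and 448 CPM. ATP1, for the alpha subunit, had 0.34 ± 0.06, with Myc at 1080.4, 967, 1034, 838, 669, 711, 461 and 428 CPM. At both genes HA in scaled CPM was below Myc in each library up to 30 min and above it in each later one. RIP1, for the Rieske iron-sulfur protein of complex III, had 0.37 ± 0.04, with Myc at 888, 807, 802, 721, 541, 511, 380.0 and 379 CPM. NDI1 had 0.48 ± 0.05, with Myc at 982, 797, 817, 746, 557, 479, 362 and 344 CPM.

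QCR10 and COX7 had the lowest called TFIIE ratio slopes, and both tags fell there. QCR10, for a small complex III subunit, had 0.16 ± 0.07, with HA at 1191, 1096, 970.1, 837, 692, 769.9, 777 and 719 CPM. Its Myc level was 1284, 1243, 1221, 1024, 794, 883, 590.4 and 559 CPM. The QCR10 site was 1677 bp wide, with its midpoint 185 bp downstream of the start codon. The median width of all TFIIE sites was 438 bp. COX7, for a complex IV subunit, had 0.20 ± 0.05, with HA at 664, 643, 561, 510.1, 439, 499.6, 472 and 423 CPM and Myc at 801, 736, 702, 592, 466, 526, 340.4 and 344 CPM. At QCR10 and COX7, HA was highest in the 10 min library, unlike at QCR6, CYC1 and COX5A, where it was lowest at 10 min.

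**Figure D1:**
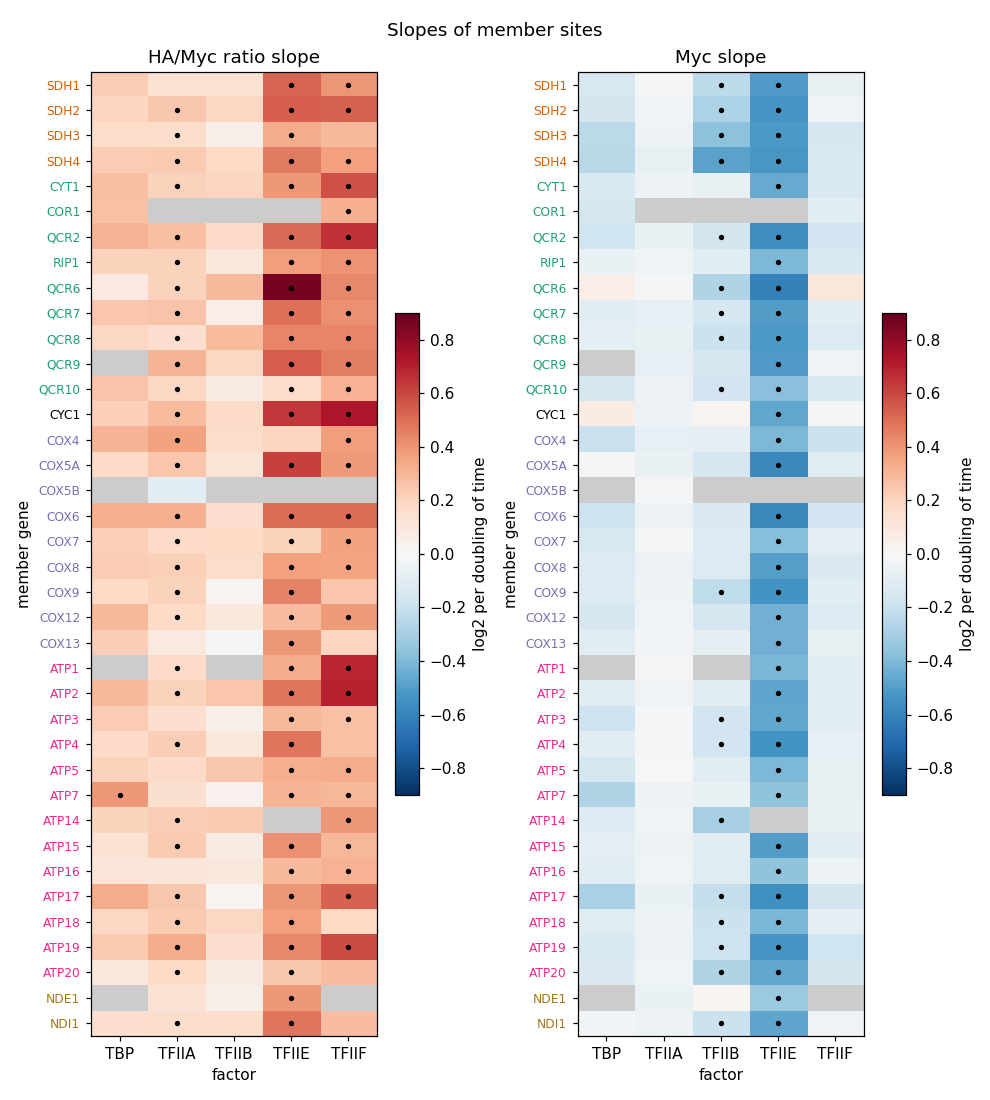
HA/Myc ratio slopes (left) and Myc slopes (right) of the 38 member genes (rows, gene names coloured by complex) for 5 factors (columns), in log2 per doubling of time. Dots mark an edgeR adjusted p under 0.05 and grey cells have no site, and the TFIIE columns carry dots at 34 (ratio) and 35 (Myc) of 35 sites.

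The Myc copy of TFIIE was called falling at all 35 member sites, where 29.4% of all sites were called falling and 30.9% rising. The median member Myc slope was -0.47, with the steepest fall at QCR6 (-0.61 ± 0.08) and the least at NDE1 (-0.34 ± 0.11). In the top quartile, which reaches below the members in level, 784 of 969 promoter sites (80.9%) were called falling, with a median of -0.23. Myc slopes were lower at more strongly bound promoters (Spearman's rho of -0.79 over 3876 promoter sites, given as a description). The share of TFIIE Myc counts in ribosomal DNA was 6.16% at 10 min and 26.7% at 120 min. Its part in the fall was not tested. The HA copy was called falling at 5 members, SDH3, QCR10, COX4, COX7 and ATP20, where 3.78% of all sites were called falling, and at none rising. ATP20, the gene of ATP synthase subunit g, had the steepest of these, -0.22 ± 0.06. No HA call was made without any 1 of the 20, 25, 30, 60 or 90 min libraries.

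The TFIIE ratio calls depended on how level was treated. With an offset fitted for each library against mean level (the level offset), 6 members were called rising and 6 falling, and the median member ratio slope was 0.01. QCR6 (0.52) and CYC1 (0.20) were past the threshold there, COX5A was at 0.16 without a call, and QCR10 reversed to -0.26. After background subtraction, in which the percentile 5 of counts per bp was taken from each library and limma was used, 18 members were called rising. The TFIIE Myc slope was called falling at 31 of 35 members with the level offset.

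**Figure D2:**
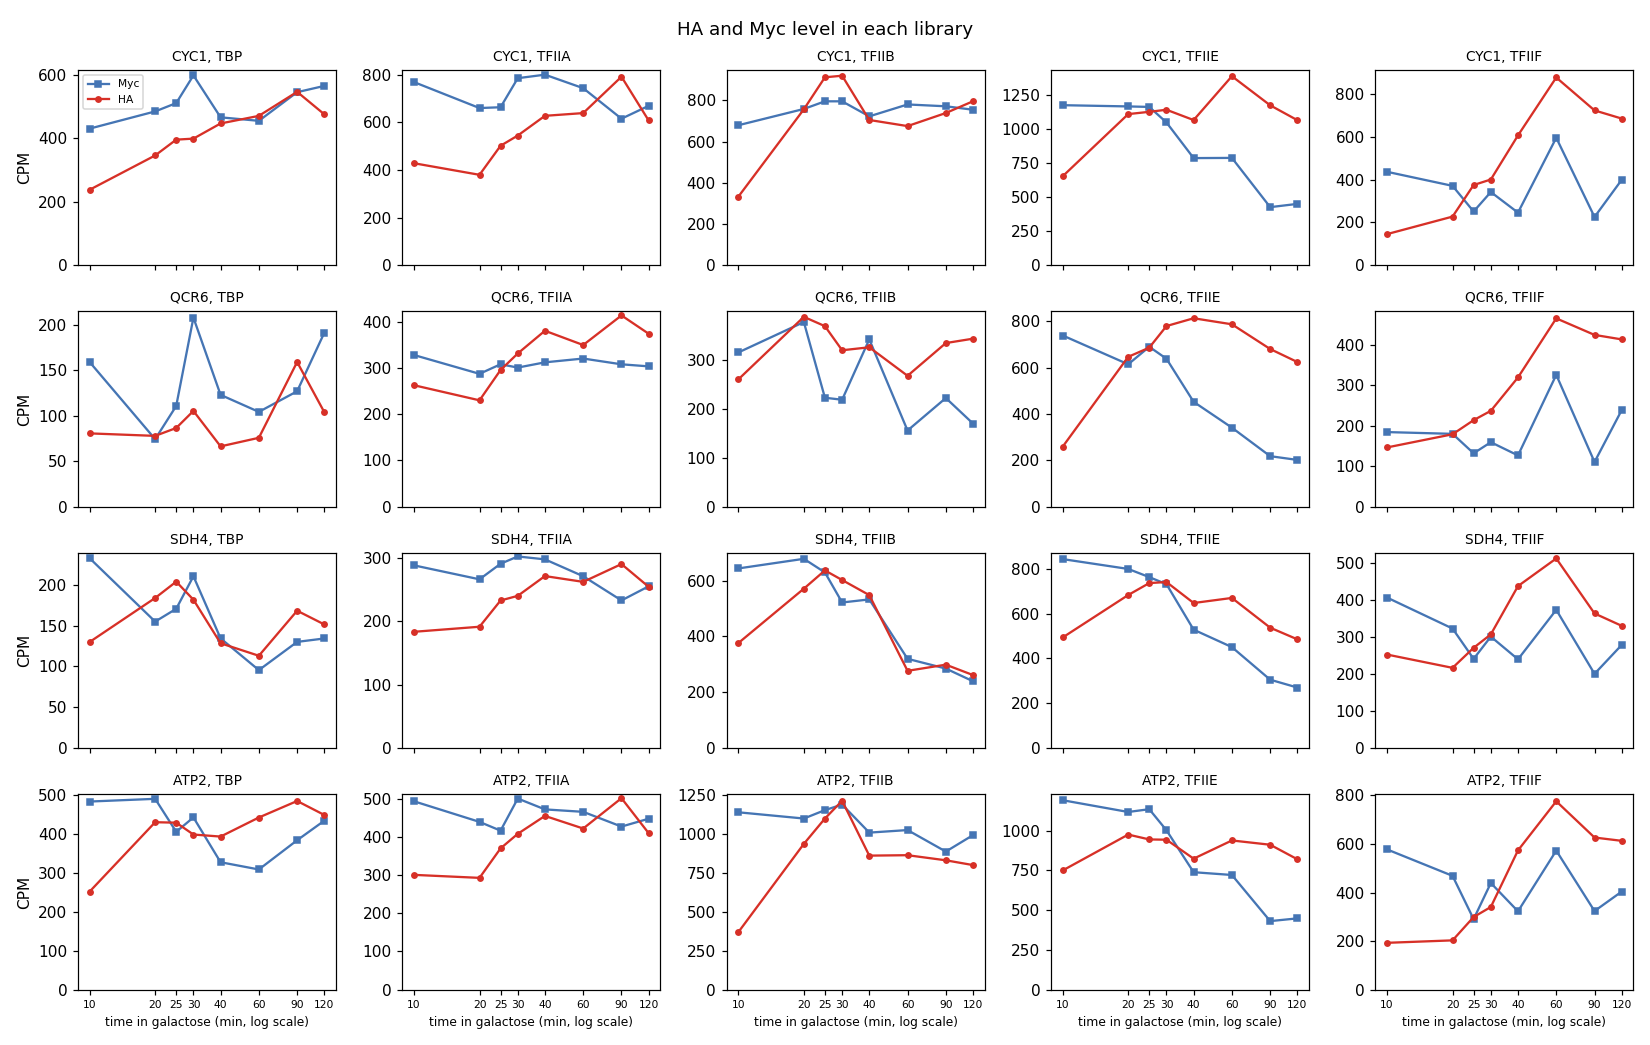
HA (red circles) and Myc (blue squares) level in CPM against time in galactose (min, log axis) at the promoters of CYC1, QCR6, SDH4 and ATP2 (rows) for each factor (columns), 1 library a point. Between the first and the last library TFIIE Myc at QCR6 fell from 739 to 202 CPM and TFIIB Myc at SDH4 from 644 to 239.7 CPM.

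In TFIIF the ratio slope was called rising at 29 of 36 member sites, where 19.4% of all sites were called rising, and at none falling. The median member ratio slope was 0.38, against -0.02 over all sites. All 9 sites of complex III were called, with 10 of 13 in complex V, 6 of 8 in complex IV, 3 of 4 in complex II and CYC1. In the top quartile of level, 64.1% of promoter sites were called rising, with a median of 0.33. The members not called were SDH3, COX9, COX13, ATP4, ATP18, ATP20 and NDI1. The HA copy was called rising at 21 members, where 22.2% of all sites rose, and the median member HA slope was 0.28. In the top quartile 61.7% of promoter sites rose, with a median of 0.29. The HA count was 6 without the 10 min library, 12 without the 20 min library and 1 with linear time, and the level offset gave 4 rising and 10 falling. The Myc slope was called at no member by edgeR or by DESeq2, with 2 of 36 at an unadjusted p under 0.05, where 0.0547% of all sites were called falling.

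CYC1 had the highest TFIIF member ratio slope, 0.73 ± 0.16. Its TFIIF HA level was 145, 227, 375, 401, 608, 879, 725 and 686 CPM. Its Myc level was 437, 371, 251, 342, 246, 596, 226 and 399 CPM. HA was highest at 60 min, and Myc went up and down between neighbouring libraries, highest also at 60 min. The mitochondrial share of counts was 61.9% and 60.4% in the TFIIF HA libraries at 10 and 25 min. It was at most 25.3% in the other HA libraries and at most 41.4% in the Myc libraries. The median promoter site held 108 counts in HA at 10 min and 166 at 25 min, against at least 435 in the other HA libraries. The part of these differences in the levels and slopes was not tested.

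ATP2 followed with 0.69 ± 0.13 and TFIIF HA at 193, 203, 299, 341, 574, 776, 627 and 613 CPM. The nearest gene to this ATP2 site was DMO1, so the site may not belong to ATP2 alone. ATP1 had 0.68 ± 0.12, with HA at 134, 168, 213, 259, 437, 609, 453 and 438 CPM. QCR6 had 0.43 ± 0.13, with HA at 146, 179, 214, 237, 319, 465, 424 and 413 CPM. At CYC1, ATP2, ATP1 and QCR6 every HA library from 40 min on was above every earlier one.

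The lowest called TFIIF ratio slopes were at ATP3, for the gamma subunit, with 0.26 ± 0.10, and ATP7, for a stator subunit, with 0.30 ± 0.09. ATP3 HA was 231, 208, 211, 268, 358, 386, 285 and 280.2 CPM, and ATP7 HA was 254, 238, 246, 296, 383, 478, 366 and 365 CPM. Both were highest at 60 min. With the level offset 3 members were called rising and 4 falling, with a median of -0.01, and ATP3, ATP7 and COX5A reversed. No TFIIF ratio call was made with linear time or after background subtraction, and 7 were made without the 10 min libraries.

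In TFIIA the ratio slope was called rising at 29 of 37 member sites, where 7.6% of all sites were called rising, and at none falling. The median member ratio slope was 0.21, against -0.01 over all sites, and in the top quartile 27.5% of promoter sites were called rising with a median of 0.10. All 8 sites of complex III were called, with 7 of 9 in complex IV, 9 of 13 in complex V, 3 of 4 in complex II, CYC1 and NDI1. The members not called were SDH1, COX5B, COX13, ATP3, ATP5, ATP7, ATP16 and NDE1. No member was called without the 10 min libraries, with linear time or after background subtraction. The count was 11 without the 20 min libraries, 9 without the 90 min libraries and 12 with the level offset.

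COX4 had the highest TFIIA member ratio slope, 0.37 ± 0.09, rank 6 of 3685. Its TFIIA HA level was 127, 133, 206, 241, 274, 262, 316 and 211 CPM. Its Myc level was 229, 205, 173, 198, 224, 203, 183 and 179.5 CPM. ATP19, the gene of a small ATP synthase subunit, had 0.33 ± 0.06, with HA at 223, 248, 316, 366, 445, 426, 483 and 386 CPM. At COX4 and ATP19 HA was lowest at 10 min, highest at 90 min and lower again at 120 min.

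The lowest called TFIIA ratio slopes were at QCR8, for a complex III subunit, with 0.15 ± 0.04, and SDH3, for a membrane anchor of complex II, with 0.16 ± 0.04. QCR8 HA was 304, 262, 315, 342, 360.4, 326, 379.6 and 329.6 CPM. SDH3 HA was 172, 176, 183, 198, 227, 212, 232 and 213 CPM. These HA ranges were narrow beside those of COX4 and ATP19.

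The TFIIA HA copy was called rising at 27 members, where 11.5% of all sites rose, and falling at 1, where 10.2% fell. In the top quartile of level 37.4% of promoter sites rose, with a median of 0.08, against a member median of 0.18. Without the 10 min library no HA call was made, and without the 20, 60 and 90 min libraries in turn 13, 14 and 1 were. The falling member was COX5B, with an HA slope of -0.11 ± 0.04 (edgeR adjusted p = 0.048), and this call was lost without the 10, 20, 25, 40, 60 or 90 min library. Its TFIIA HA level was 58.1, 54.3, 50.9, 44.6, 44.8, 48.7, 42.1 and 44.0 CPM. COX5A, its aerobic counterpart, had an HA slope of 0.20 ± 0.06, with HA at 403, 369, 484, 512, 595, 598, 686 and 527 CPM. The TFIIA Myc level of COX5B stood at percentile 20.8 and that of COX5A at 92.5. When not divided by site width they stood at 2.96 and 93.3. TFIIA HA slopes were higher at more strongly bound promoters (Spearman's rho of 0.48 over 2972 promoter sites, given as a description). Whether the slopes of these isoform genes differ was not tested. The TFIIA Myc slope was called at no member by edgeR or by DESeq2, with 1 of 37 at an unadjusted p under 0.05, where 0.19% of all sites were called falling.

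In TFIIB the Myc slope was called falling at 18 of 35 member sites and rising at none. Of all TFIIB sites 9.37% were called falling. The median member Myc slope was -0.16. The 865 promoter sites in the top quartile of level, which held every member site, had a median of 0.10, with 9.02% called falling and 29.6% called rising. The difference between members and these sites was not tested. All 4 genes of complex II fell, with a median of -0.33, as did 5 of 8 in complex III, 7 of 12 in complex V, COX9 alone of 8 in complex IV, and NDI1. The count was 8 without the 120 min library, 9 without the 90 min library and 10 without the 20 min library.

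Complex II oxidizes succinate and belongs to both the respiratory chain and the citric acid cycle. SDH4, for a membrane anchor, had a TFIIB Myc slope of -0.48 ± 0.07 (edgeR adjusted p = 0.00033) at chrIV:817395-818016. The values of SDH4, SDH3 and SDH1 were chosen for printing after their slopes were seen. SDH4 Myc was 644, 678, 629, 522, 533, 320.0, 285 and 239.7 CPM and its HA level 377, 571, 637, 602, 548, 277, 299 and 262 CPM. Each Myc library from 60 min on was below each earlier one, and the same was true of HA.

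SDH3, the other membrane anchor gene, had a TFIIB Myc slope of -0.37 ± 0.06, with Myc at 627, 653, 560.2, 504, 509.9, 339, 309.7 and 303 CPM. SDH2 had -0.29 ± 0.05, with Myc at 949, 959, 925, 828, 809, 642, 581 and 516 CPM. SDH1, for the flavoprotein, had -0.24 ± 0.05, with Myc at 657, 635, 616, 471, 566, 393, 431 and 397 CPM. All 4 genes were called falling in each of the 17 fits run for the TFIIB Myc slope. ATP14, the gene of ATP synthase subunit h, had -0.30 ± 0.06. CYC1 had 0.02 ± 0.05, with Myc at 679, 758, 795, 795, 722, 780.1, 771 and 755 CPM, a narrow range beside that of SDH4.

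A TFIIB Myc library at 0 min, before galactose, was set beside the others without a test. Relative to the median promoter site, the median complex II site stood at 2.68 at 0 min, 2.29 after 10 min and 1.39 after 120 min on the log2 scale. The complex IV values were 2.75, 2.78 and 2.43. Of the 35 members 34 were lower at 120 min than at 0 min. The count over promoter sites, 1731 of 3460, is near what centring each library on their median gives, so it is no comparison. The share among sites of like level was not taken. The 0 min library held 5481265 counts in sites, against 13770385 at 90 min, the fewest of the other TFIIB Myc libraries.

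The TFIIB HA slope was called at no member by edgeR, with 2 of 35 at an unadjusted p under 0.05 and 1 falling call by DESeq2, where 3.05% of all sites were called falling. Without the 10 min library it was called falling at 16 members. The TFIIB ratio slope was also called at no member by edgeR, with 6 of 35 at an unadjusted p under 0.05 and 1 rising call by DESeq2, where 0.669% of all sites were called rising. With the level offset 33 members were called falling in Myc and 15 in HA.

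**Figure D3:**
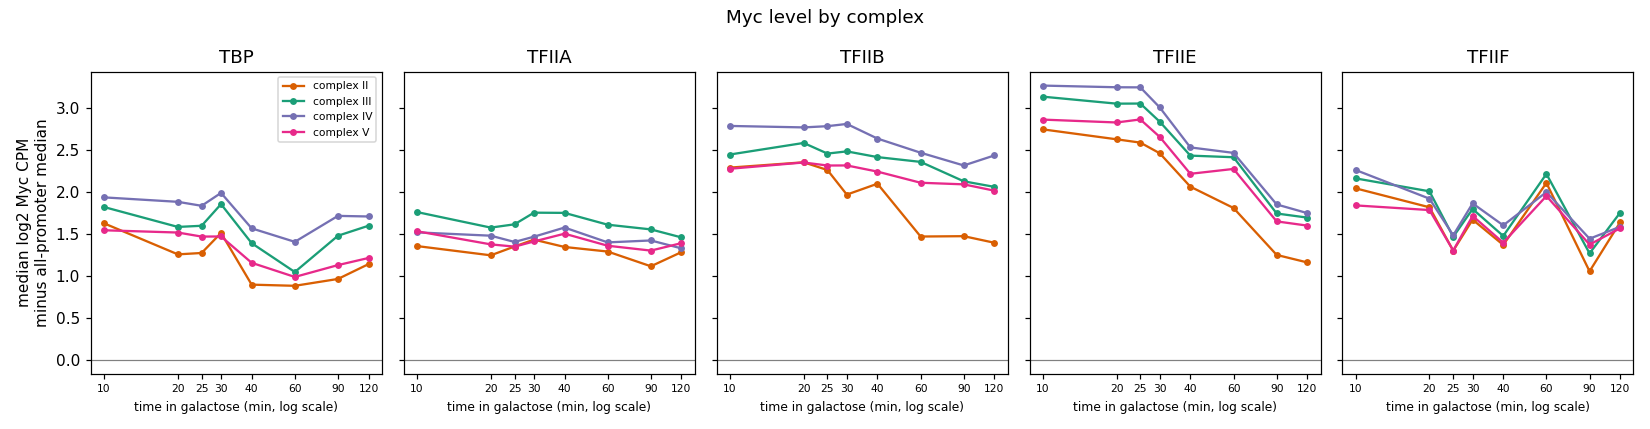
Median Myc level of member sites by complex, as log2 CPM minus the median of all promoter sites of the factor, against time in galactose (min, log axis), 1 library a point. The complex II median was 2.29 in the first and 1.39 in the last TFIIB library, and 2.74 and 1.16 in those of TFIIE.

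TBP had the fewest member calls in the ratio slope after TFIIB. ATP7 alone of 34 members was called, with 0.39 ± 0.09 (edgeR adjusted p = 0.0098), where 6.64% of all sites were called rising. Its TBP HA level was 144, 279.7, 299, 235, 270.5, 255, 236 and 255 CPM. Its Myc level was 251, 275, 232, 188, 159, 138, 148 and 160.5 CPM. HA was lowest at 10 min and Myc lowest at 60 min. All 34 member ratio slopes were above 0, with a median of 0.22, against 0.005 over all sites. Of these members 20 had an unadjusted p under 0.05. The shares of all sites above 0 or at such a p are not given here. In the top quartile of level 17.4% of promoter sites were called rising, with a median of 0.17. The ATP7 site also lay in the window of PUT3, and its call was lost without the 10 min libraries. Without the 120 min libraries 18 members were called, and DESeq2 called 14. Linear time, no time block, total-count scaling and background subtraction each gave 0.

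CYC1 alone was called in the TBP HA slope, rising by 0.28 ± 0.08, where 8.87% of all sites rose. Its TBP HA level was 238, 346, 396, 399, 447, 471, 547 and 476 CPM. This call was lost without the 10, 20, 30, 60 or 90 min library and reversed to -0.04 with the level offset. The TBP Myc slope was called at no member by edgeR, with 16 of 34 at an unadjusted p under 0.05 and 8 falling calls by DESeq2, where 1.76% of all sites were called falling.

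Median time courses were also taken by complex. In TFIIE the median log2(HA/Myc), relative to all promoter sites, was -0.80 at 10 min and 0.84 at 120 min for complex II. The same values were -0.70 and 0.82 for complex III, -0.50 and 0.74 for complex IV, and -0.45 and 0.69 for complex V. In TFIIB, complex II stood at -0.65 at 10 min, 0.46 at 30 min and 0.02 at 120 min, and complex IV at -0.86, -0.03 and -0.21. Differences between complexes and between factors were not tested.

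**Figure D4:**
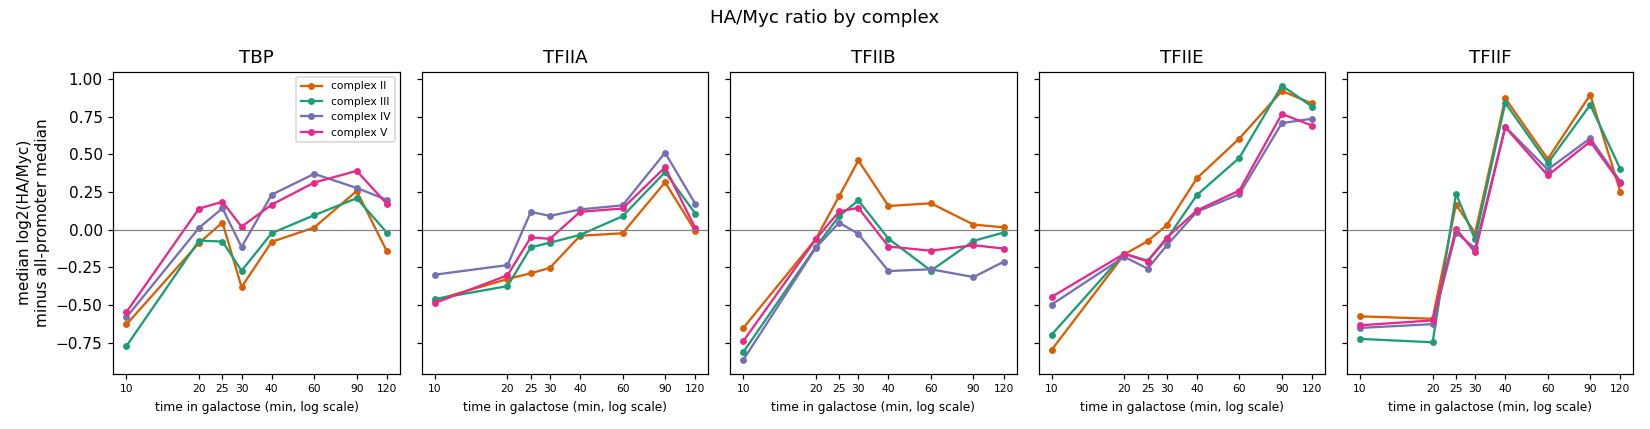
Median log2(HA/Myc) of member sites by complex minus the median of all promoter sites, for each factor, against time in galactose (min, log axis), 1 pair of libraries a point. TFIIE medians went from between -0.80 and -0.45 at 10 min to between 0.69 and 0.84 at 120 min.

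**Figure D5:**
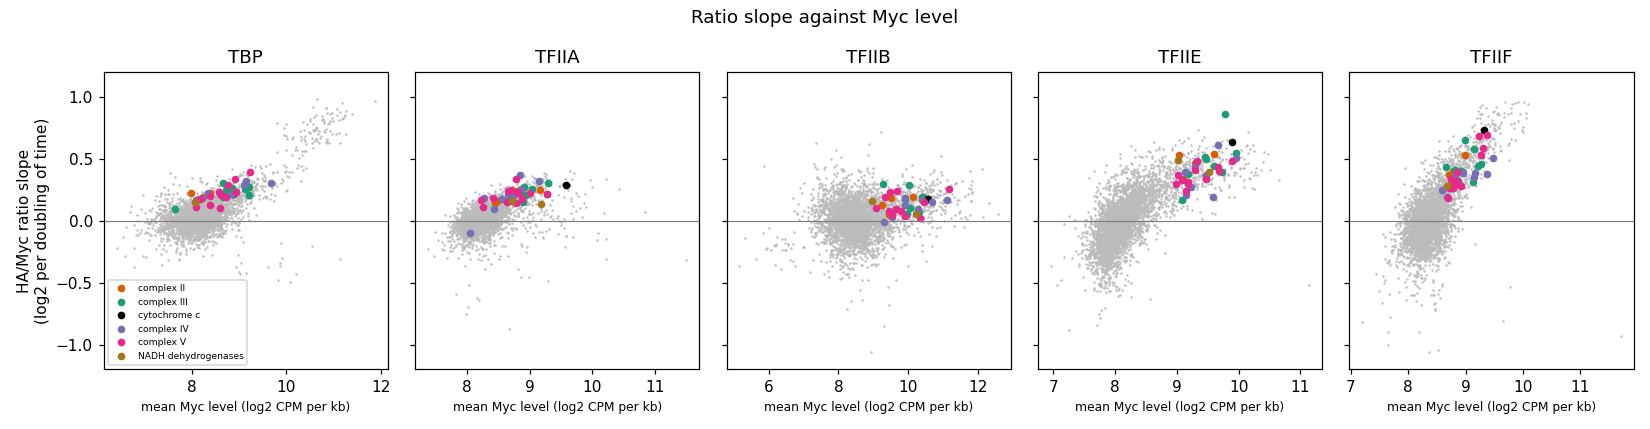
Ratio slope (log2 per doubling of time, axis shown from -1.2 to 1.2) against mean Myc level (log2 CPM per kb) for all promoter sites (grey) and member sites (coloured by complex) of each factor. TFIIE members lie at the high end of level, where the rho over all 3876 promoter sites was 0.70.

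Other genes of respiration were counted in the same fits. Among 11 sites of other respiratory genes in TFIIE, 8 had a called rising ratio slope and none a falling one, with a median of 0.39. They included PET9, the main ADP/ATP carrier gene (0.45 ± 0.05), and TIM11, which encodes ATP synthase subunit e (0.39 ± 0.05). Of 28 assembly factor genes 10 rose and 1 fell, with a median of 0.01, and of 9 coenzyme Q synthesis genes 2 rose and 4 fell, with a median of -0.03. Over all TFIIE sites 29.4% rose and 30.9% fell. In TFIIB Myc 6 of 10 other respiratory genes fell, where 9.37% of all sites fell, among them the lactate dehydrogenase genes CYB2 (-0.55 ± 0.05) and DLD1 (-0.57 ± 0.08). HAP4, which encodes the activating subunit of the Hap complex, had a TFIIF ratio slope of 0.63 ± 0.14 and a TFIIE Myc slope of -0.51 ± 0.13. CYC7, the gene of the hypoxic cytochrome c isoform, had a TFIIF ratio slope of -0.35 ± 0.09. It was the only 1 of 10 other respiratory genes called falling there, and 6 were called rising. Of 6 regulator genes, HAP4 among them, 2 rose in the TFIIF ratio. Over all TFIIF sites 19.4% rose and 17.1% fell. In TFIIE Myc 4 of 7 regulator genes fell, where 29.4% of all sites fell.

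Some member sites could not be given to 1 gene. Another gene's window held the member's site in 9 cases in TBP, 10 in TFIIA, 12 in TFIIB, 10 in TFIIE and 13 in TFIIF. The ATP1 sites of TFIIA and TFIIE overlapped a tRNA gene, a class transcribed by RNA polymerase III, and the COX13 sites of TFIIA and TFIIB overlapped the antisense RNA gene RME2. The counts do not separate strands, and the part of these neighbours in the values was not tested.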

How the data were processed

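Read counts per binding site were deposited as tables of raw counts for 5 factors. The authors mapped reads with Bowtie2 2.2.6, called peaks with MACS2 2.1.0.20151222 on early Myc libraries, merged them and counted reads with bedtools, so sites were chosen on part of the Myc data. No replicate libraries were given, and 10 input and 4 Myc 0 min libraries were not analysed here. Members and gene lists were chosen with earlier results of these data known.

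Sites with a mean of at least 10 counts were tested across all sites of a factor with edgeR 4.0.16 (R 4.3.3), quasi-likelihood, TMM scaling. The ratio slope was the interaction of tag and log2(time) with time point as a block (16 libraries, 6 residual degrees of freedom). Single-tag slopes used 8 libraries. CPM used TMM library sizes, and log2(HA/Myc) a pseudocount of 0.5 CPM. Values by time were printed by a rule: in each factor the 2 largest and 2 smallest called ratio slopes. The rule added CYC1, QCR6, RIP1, COX5A, COX5B, ATP1, ATP2, SDH2 and NDI1. SDH4, SDH3 and SDH1 were outside the rule and were added after their slopes were seen. Other members were named for their calls or slopes. Alternatives used DESeq2 1.42.0, limma 3.58.1, other scalings, filters and time scales. Fits were tested on simulated counts. Protein induction measured by Western blotting was not used here, so slopes are no residence times. Tables, figures and motif searches used Python with pandas and matplotlib.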

Additional observations from a re-analysis of the deposited data

How the results depend on the processing

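DESeq2 size factors, TMM over nuclear sites outside the rDNA, a minimum mean of 50 counts and the fit without a count filter each left every count of called members within 1.5 times its main value. HA and Myc libraries were paired by time point in the ratio slope, and no replicates could be paired because each group held 1 library. Without that time block the ratio slope was called at 0 members in TBP, 26 in TFIIA, 0 in TFIIB, 33 in TFIIE and 23 in TFIIF.

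Ratio slope. TBP (1 member called) gave 14 by DESeq2's Wald test and 0 with background subtraction, linear time, no time block or total-count scaling. TFIIA (29) gave 0 with background subtraction, 0 with linear time and 12 with the level offset. TFIIB (0) gave 1 by DESeq2 and 1 with total counts. TFIIE (34) gave 18 with background subtraction and 12 (6 rising, 6 falling) with the level offset. TFIIF (29) gave 0 with background subtraction, 0 with linear time and 7 (3 rising, 4 falling) with the level offset. Leaving out each time point gave 0 to 18 for TBP, 0 to 36 for TFIIA, 0 to 1 for TFIIB, 33 to 35 for TFIIE and 7 to 34 for TFIIF.

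Myc slope. TBP (0) gave 8 by DESeq2, 1 with the level offset and 3 with total counts. TFIIB (18) gave 33 with the level offset. Leaving out each time point gave 0 to 2 for TBP, 8 to 18 for TFIIB, 34 to 35 for TFIIE and 0 for TFIIA and TFIIF.

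HA slope. TBP (1) gave 0 with linear time and 0 with the narrower gene window, 3 falling with the level offset and 3 falling with total counts. TFIIA (28) gave 0 with linear time and 15 with the level offset. TFIIB (0) gave 1 by DESeq2, 1 with linear time and 15 with the level offset. TFIIE (5) gave 9 by DESeq2, 3 with the narrower window, 0 with linear time, 18 with the level offset and 8 with total counts. TFIIF (21) gave 1 with linear time, 36 with total counts and 14 (4 rising, 10 falling) with the level offset. Leaving out each time point gave 0 to 1 for TBP, 0 to 34 for TFIIA, 0 to 16 for TFIIB, 0 to 10 for TFIIE and 6 to 25 for TFIIF.

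Named genes reversed under the level offset only. TFIIE ratio slopes became -0.0650 for ATP1, -0.135 for COX7 and -0.262 for QCR10, and TFIIF ratio slopes became -0.0812 for ATP3, -0.0813 for ATP7 and -0.121 for COX5A. HA slopes became -0.0411 for CYC1 in TBP, and -0.104 for ATP7 and -0.0731 for RIP1 in TFIIF. Total-count scaling moved the median ratio slope of all sites to -0.15 for TBP and 0.51 for TFIIF, and the median HA slope to -0.20 and 0.38. The cause of these changes was not tested.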
